A study of Mus musculus with 9 samples.

Results

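Cells display fragments of their own proteins, and of any virus inside them, on MHC class I molecules. The peptides reach the endoplasmic reticulum (ER) through TAP, a transporter built from the Tap1 and Tap2 proteins. There the aminopeptidase Erap1 trims them to fit. Tapasin (Tapbp) tethers the empty class I molecule to TAP and edits which peptide is kept, with the general ER chaperone calreticulin (Calr) and the thiol oxidoreductase Pdia3 (ERp57) in the same loading complex. Tapbpl (TAPBPR) is a relative of tapasin that edits peptides outside that complex, and calnexin (Canx) folds the heavy chain before it joins. In the brain, resting neurons and glia are known to make little of the class I machinery, and interferons induce it.

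These 8 genes were followed in mouse brain after injection of BV-HSVtk, a gene vector made from baculovirus, an insect virus. Members were all probe sets with exactly 1 annotated gene symbol that was one of Tap1, Tap2, Tapbp, Tapbpl, Erap1, Calr, Pdia3 and Canx, which gave 19 of the 45037 probe sets that were not hybridization controls. Of these, 14 passed a filter on dim signals and were tested, with at least 1 for each of the 8 genes. All animals were adult male BALB/c mice with an intact immune system, injected into the striatum on both sides, and tissue around the injection sites was taken 2 days later. The HS group received 100000000 viral particles per side, in 10 µL, of vector purified by high-speed centrifugation. For the MC+HS group the same number of particles went through membrane chromatography before the centrifugation. Mock mice received baculovirus-free culture medium of Sf9 insect cells that had been put through the MC+HS procedure. HS against mock therefore changes vector and purification at once, and these cannot be told apart there. No group was left uninjected, so what the injection itself did cannot be seen here. The sample labels give no volume for the mock injection, and the mock medium did not go through the HS procedure alone. Effects of the carrier can therefore not be taken as equal in all groups. Each group held 3 mice, with 1 array per mouse, so n = 3 in each group except where HS replicate 1 or another array is dropped.

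Signals are given as log2(signal + 16) after the arrays were moved to a common median, called the log2 signal. A difference between groups on this scale understates the change of dim probe sets. A call means a limma adjusted p (Benjamini-Hochberg over all probe sets tested) under 0.05. Array medians lay between 147 and 263 intensity units, and striatal neuron markers were above the dim filter for 7 of 7 genes on the array. HS replicate 1 stood apart: its log2 signals had a standard deviation of 1.54, against 2.17 to 2.39 on the other arrays, and its median correlation with them was 0.757, against 0.956 to 0.979. Over all 13331 genes tested, the median HS difference from mock was -0.23 with this array and 0.05 without it. Results for the 8 genes are therefore given with all 9 arrays and again without HS replicate 1. The 3 groups share 1 estimate of the spread of each probe set. HS replicate 1 thus enters the standard errors and p-values of MC+HS against mock, but not its differences. For Tapbp (1421812_at) that difference was 1.38 in both fits, with a standard error of 0.48 with this array and 0.23 without it. In bulk tissue, more cells of a type and more RNA per cell cannot be told apart.

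RefSeq promoter windows on GRCm38.p6, from 250 bases before to 50 bases after a gene's start, were found for 6 of the 8 genes, not for Tap2 and Tapbpl. Tap1 is shown because it shares its upstream region with a proteasome gene. On chromosome 17, Psmb9, Tap1, Psmb8 and Tap2 follow each other with no other coding gene between them, and Tap1 and Psmb9 point away from each other with 225 bases between their starts. Those bases, chr17:34187331-34187555 on the plus strand, carry a CCAAT box and a GC box in reverse (the letters of GGGCGG on the other strand), both in capitals.
Tap1: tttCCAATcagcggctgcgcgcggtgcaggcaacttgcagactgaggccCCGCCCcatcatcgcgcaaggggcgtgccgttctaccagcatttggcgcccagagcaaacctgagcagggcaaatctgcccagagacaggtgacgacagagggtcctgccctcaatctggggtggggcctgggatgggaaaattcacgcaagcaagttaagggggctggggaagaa

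Motifs were searched on both strands of the 6 windows. The core of the interferon-stimulated response element (ISRE), searched as GAAA and GAAA with any 2 bases between, was in 1 of the 6 member windows, that of Erap1, and in 3.44% of all 32851 windows. It is in capitals, in reverse, in chr13:74639833-74639862 (plus strand), where it spans the start.
Erap1: gccggtccaccttcacTTTCACTTTCggtc
The ER stress response element (ERSE), searched as CCAAT and CCACG with any 9 bases between, is known from promoters of ER chaperones. It was in 2 of the 6 windows, those of Calr and Canx, and in 0.119% of all windows. The capitals mark it in chr8:84847055-84847113 and chr11:50325780-50325838, both read on the minus strand. By its definition every ERSE match holds a CCAAT box, a motif that alone was in 37.4% of windows.
Calr: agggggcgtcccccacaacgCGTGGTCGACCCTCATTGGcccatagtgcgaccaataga
Canx: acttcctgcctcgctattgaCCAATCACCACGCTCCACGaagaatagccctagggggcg
The interferon-gamma-activated site TTCNNNGAA was in 0 of the 6 windows and in 8.3% of all windows. The NF-kB consensus was in 1 of the 6, that of Calr, and in 8.46% of all windows. These are matches of letters only, and a window without a match says nothing about more distant sequence.

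The transporter genes had the largest differences of the 8. Tap1, read by probe set 1416016_at, had log2 signals of 7.02, 8.08 and 7.33 on the mock arrays, 9.41, 10.10 and 10.58 on the HS arrays and 10.38, 10.61 and 10.40 on the MC+HS arrays. Every vector array lay above every mock array, with HS replicate 1 the lowest of the vector arrays and mock replicate 2 the highest of the mock arrays. In deposited units the mock signals were 103 to 278 and the vector signals 664 to 2400. Tap1 rose 5.87-fold with HS vector (log2 difference 2.55 ± 0.35, SE, adjusted p = 0.0124, limma) and 7.94-fold with MC+HS vector (2.99 ± 0.35, adjusted p = 0.00919). The log2 differences without HS replicate 1 were 2.86 ± 0.26 and 2.99 ± 0.23 (limma adjusted p = 0.000121 and 5.67e-05). With mock replicate 1 or 3, or HS replicate 2 or 3, left out instead, the HS call was lost, with limma adjusted p between 0.0542 and 0.0822 and log2 differences between 2.28 and 2.52. The MC+HS call was lost without mock replicate 1 or 3 or without any one MC+HS array (limma adjusted p between 0.0587 and 0.0773).

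Tap2 (1453913_a_at), the other subunit of the transporter, showed log2 signals of 6.93, 8.02 and 6.82 in mock, 10.07, 10.00 and 10.35 in HS and 9.91, 10.14 and 9.83 in MC+HS brains. The groups were again fully apart, and here HS replicate 1 lay among the other HS arrays. Tap2 rose 7.39-fold with HS vector (2.88 ± 0.31, limma adjusted p = 0.00437) and 6.52-fold with MC+HS vector (2.70 ± 0.31, limma adjusted p = 0.00782). Its HS call held with each of the 9 arrays left out in turn, whereas its MC+HS call was lost without mock replicate 1 or 3 or any one MC+HS array (limma adjusted p between 0.0545 and 0.0683). The log2 differences without HS replicate 1 were 2.92 ± 0.29 and 2.70 ± 0.26 (limma adjusted p = 0.000236 and 0.000234). Mock replicate 2 exceeded the mean of the other mock arrays by 0.90 for Tap1 and by 1.14 for Tap2.

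Tap1 had 3 further probe sets, 1420274_at, 1448177_at and 1449803_x_at, which did not pass the filter. They did not follow the first: 1420274_at lay between 6.46 and 26.9 intensity units on all arrays. Probe set 1448177_at read 155 units on HS replicate 1 and 13.5 and 60.3 on the other HS arrays, against 4.54 to 5.85 on mock and 4.19 to 7.13 on MC+HS arrays. It shares its annotated accession with the bright Tap1 probe set, so the Tap1 result rests on 1 of its 4 probe sets.

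**Figure D1:**
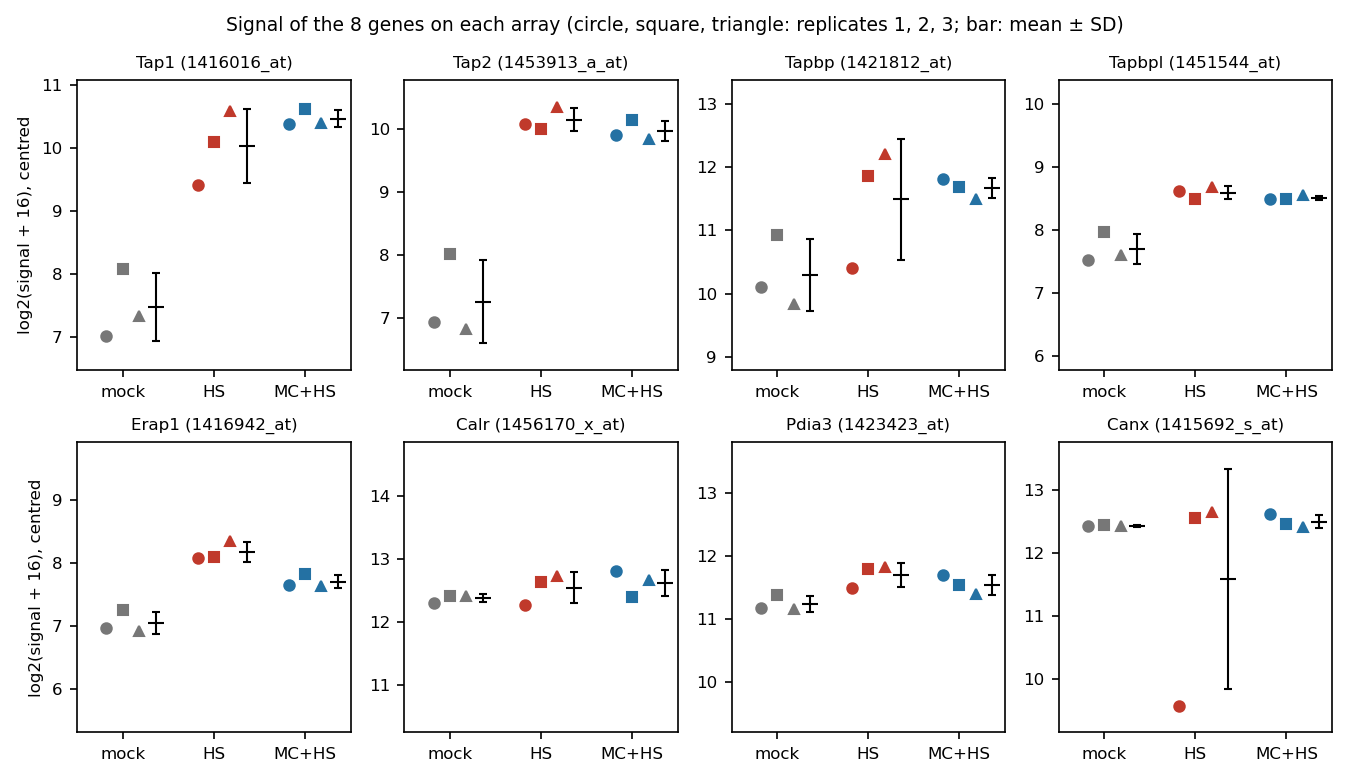
Log2 signal of the 8 genes, 1 probe set per gene, on each array (vertical axis, log2(signal + 16) after centring, with the same span in every panel). Grey, red and blue points are mock, HS and MC+HS arrays, and the bar is the mean ± SD of 3. The vector arrays lie clear of mock for Tap1, Tap2, Tapbpl and Erap1, while HS replicate 1 (circle) lies apart from the other HS arrays for Tapbp and Canx.

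The peptide editors are described next, in an order that is not a ranking. Tapbp is read by 2 probe sets. On 1421812_at the log2 signals were 10.11, 10.93 and 9.83 in mock, 10.40, 11.86 and 12.21 in HS and 11.82, 11.70 and 11.50 in MC+HS brains. The MC+HS arrays were all above mock, but HS replicate 1 fell inside the mock range, 1.64 below the mean of the other HS arrays. With all 9 arrays the differences from mock were 1.20 ± 0.48 for HS and 1.38 ± 0.48 for MC+HS, and neither passed (limma adjusted p = 0.635 and 0.639). Without HS replicate 1, Tapbp rose 3.36-fold with HS vector (1.75 ± 0.26, limma adjusted p = 0.00259) and 2.60-fold with MC+HS vector (1.38 ± 0.23, limma adjusted p = 0.00657). Quantile normalization of all 9 arrays also gave an HS call (limma adjusted p = 0.0229). The 1450378_at values gave the same calls in the fits with and without HS replicate 1: 7.36, 7.99 and 7.84 in mock, 7.22, 9.28 and 9.63 in HS and 8.84, 8.67 and 8.88 in MC+HS. With HS replicate 1 left out this probe set rose by 1.73 ± 0.19 and 1.06 ± 0.17 on the log2 scale (limma adjusted p = 0.00039 and 0.00438).

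Tapbpl (1451544_at) had log2 signals of 7.52, 7.96 and 7.59 in mock, 8.61, 8.48 and 8.67 in HS and 8.48, 8.49 and 8.55 in MC+HS brains. All vector arrays were above all mock arrays, and the 3 MC+HS values differed by less than 0.1. It rose 1.86-fold with HS vector (0.90 ± 0.15, limma adjusted p = 0.0356), while the MC+HS difference of 0.81 ± 0.15 missed the threshold (limma adjusted p = 0.0612). Both passed without HS replicate 1, at 0.88 ± 0.15 and 0.81 ± 0.13 (limma adjusted p = 0.00696 and 0.00623). The HS call was lost without mock replicate 1 or 3, without HS replicate 2 or 3 and without any one MC+HS array (limma adjusted p between 0.085 and 0.22). It was also lost with quantile normalization and with no filter (limma adjusted p = 0.163 and 0.0878). The MC+HS difference passed without mock replicate 2 (limma adjusted p = 0.0413). A second Tapbpl probe set, 1424961_at, did not pass the filter. It read 13.5 to 39.9 units on mock, 45.1 to 81.0 on HS and 17.5 to 57.0 on MC+HS arrays.

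Erap1 (1416942_at), the trimming enzyme, showed log2 signals of 6.97, 7.24 and 6.92 in mock, 8.08, 8.08 and 8.35 in HS and 7.65, 7.82 and 7.64 in MC+HS brains. The 3 groups did not overlap, with MC+HS between the others. Erap1 rose 2.18-fold with HS vector (1.12 ± 0.15, limma adjusted p = 0.0117). With MC+HS vector the difference was 0.65 ± 0.15, which passed without HS replicate 1 (limma adjusted p = 0.0335) and missed with all 9 arrays (limma adjusted p = 0.162). The HS call was lost without mock replicate 1 or 3 or without HS replicate 2 or 3 (limma adjusted p between 0.0567 and 0.0767). The second Erap1 probe set, 1439068_at, did not pass the filter. It read 3.90 to 16.8 units on mock, 4.04 to 23.7 on MC+HS and 25.0 to 110 on HS arrays, highest on HS replicate 1.

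The 3 general ER chaperones of the set differed less from mock than the transporter genes. Pdia3 (1423423_at) had log2 signals of 11.17, 11.38 and 11.15 in mock, 11.48, 11.78 and 11.83 in HS and 11.69, 11.53 and 11.39 in MC+HS brains. Every HS array was above the mock range, while MC+HS replicate 3 was barely above mock replicate 2, the highest mock array. With all 9 arrays neither difference passed (0.46 ± 0.23 and 0.30 ± 0.23, limma adjusted p = 0.635 and 0.9999). Without HS replicate 1 Pdia3 rose 1.48-fold with HS vector (0.57 ± 0.11, limma adjusted p = 0.0182), and the MC+HS difference did not pass (limma adjusted p = 0.18). Its second probe set, 1445330_at, did not move with it: without HS replicate 1 its HS difference was 0.10 ± 0.15.

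Calr was read by 3 bright probe sets that gave like values. On 1456170_x_at the log2 signals were 12.30, 12.41 and 12.41 in mock, 12.27, 12.63 and 12.73 in HS and 12.81, 12.40 and 12.66 in MC+HS brains. HS replicate 1 and MC+HS replicate 2 lay within or below the mock range on this probe set. Without HS replicate 1 the HS differences of the 3 probe sets were 0.30, 0.32 and 0.36 and the MC+HS differences 0.25, 0.29 and 0.33. None was called in that fit (limma adjusted p between 0.071 and 0.289), and the 95% intervals of all 6 lay above 0 before adjustment, with upper ends between 0.475 and 0.568. The highest of these upper ends is a 1.48-fold difference. With all 9 arrays under quality weights, which gave HS replicate 1 little weight, 1417606_a_at and 1433806_x_at passed for HS (limma adjusted p = 0.0338 and 0.0392).

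For Canx, 1415692_s_at gave log2 signals of 12.42, 12.44 and 12.42 in mock and 12.62, 12.46 and 12.41 in MC+HS brains. In the HS group it gave 12.55 and 12.64 on replicates 2 and 3 but 9.57 on replicate 1, where the deposited signal was 746 units against 5036 to 10052 on the other 8 arrays. Of its other probe sets, 1428935_at was also lower on HS replicate 1, by 1.08 against the mean of the other HS arrays, and 1422845_at was not (-0.05). The HS difference of -0.84 ± 0.70 (limma adjusted p = 0.635) turned to 0.17 ± 0.09 without HS replicate 1 (limma adjusted p = 0.429). Without that array the 95% interval of the 1415692_s_at difference was -0.02 to 0.36 for HS and -0.10 to 0.24 for MC+HS.

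**Figure D2:**
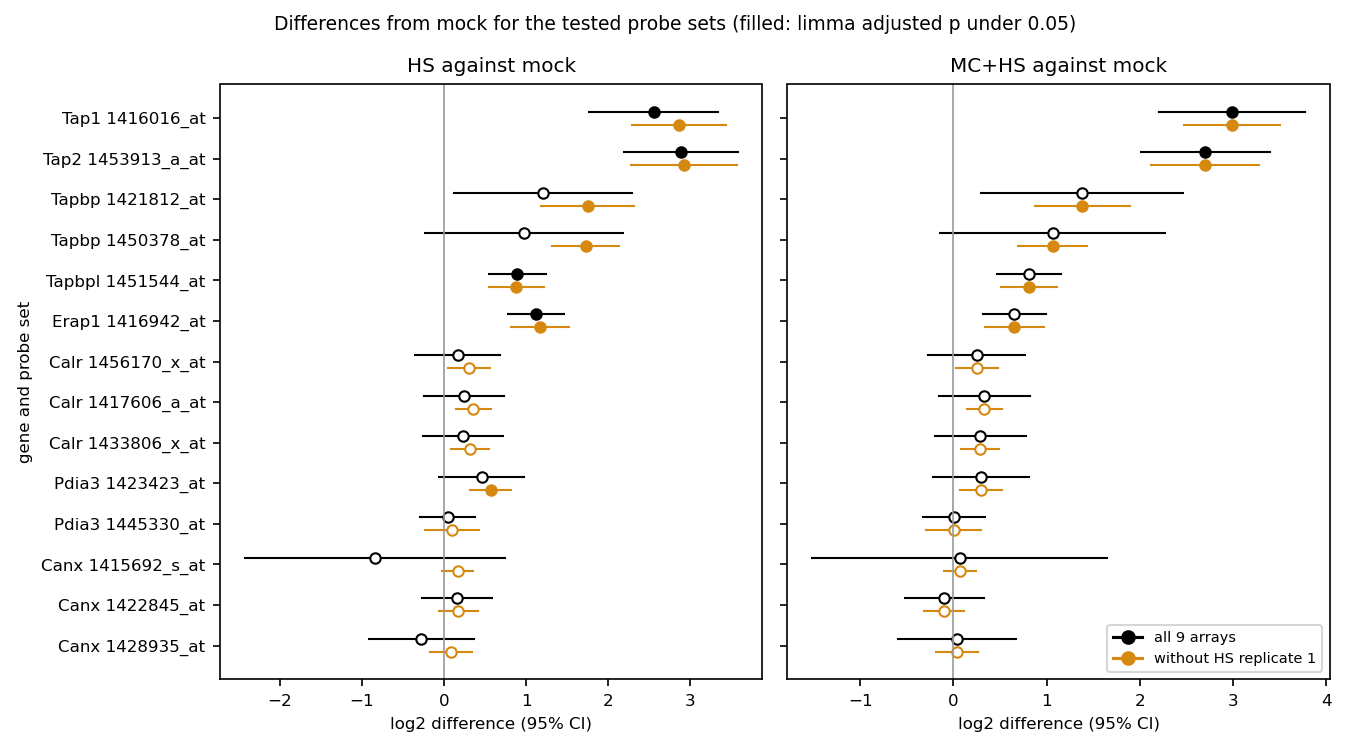
Log2 difference from mock (horizontal axis) with its 95% confidence interval for the 14 tested probe sets, HS on the left and MC+HS on the right, from the fit of all 9 arrays (black) and of 8 arrays without HS replicate 1 (orange); filled points have a limma adjusted p under 0.05. Tap1 and Tap2 lie at 2.55 or more in both panels, Tapbp, Tapbpl and Erap1 between 0.65 and 1.75, and the Canx points of the 8-array fit between -0.10 and 0.17.

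Counted over the members, HS vector raised 4 of 14 probe sets, which stood for 4 of the 8 genes (Tap1, Tap2, Tapbpl and Erap1), where 0.747% of all 28257 probe sets and 0.893% of all 13331 genes tested were called higher. MC+HS vector raised 2 of 14 probe sets, those of Tap1 and Tap2, where 0.556% of probe sets and 0.69% of genes were called higher. The spread behind these MC+HS calls includes HS replicate 1. No member was called lower in either comparison, where 0.0283% and 0.0248% of all probe sets were. Without HS replicate 1 the counts were 7 of 14 probe sets for HS (6 of 8 genes, all but Calr and Canx) and 6 of 14 for MC+HS (5 of 8 genes, Pdia3 no longer among them). The shares called higher among all probe sets in that fit were 2.97% and 2.51%, and among all genes 3.82% and 3.25%. Leaving out mock replicate 1 or 3 or HS replicate 2 or 3 instead left 1 HS probe set called. Leaving out mock replicate 1 or 3 or any one MC+HS array left 0 for MC+HS. Calls also fell among all probe sets: without mock replicate 1, 0.243% were called higher for HS and 0.0607% for MC+HS. The median difference of the 8 genes was 1.01 for HS and 0.73 for MC+HS, and the median over all genes -0.23 and 0.01. Of the 14 tested probe sets, 13 were above the filter's level on all 3 mock arrays; that of Tap2 was above it on 2 mock arrays and so passed only with the help of the vector arrays. By rank alone, 6 of 14 had all HS arrays above all mock arrays, where 4.65% of all probe sets did, and 9 of 14 had all MC+HS arrays above mock, where 8.79% did. Both comparisons use the same mock arrays, so their likeness is partly built in.

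The direct comparison of MC+HS with HS asked whether the added chromatography step changed the response. No member was called, and among all probe sets tested 0 were called with 9 arrays and 1 without HS replicate 1 (0% and 0.00357%). With all 9 arrays 1 of 14 member probe sets had an unadjusted p under 0.05, against 3% of all probe sets. This was Erap1, lower with MC+HS vector by 0.47 ± 0.15 (95% interval -0.81 to -0.13, limma adjusted p = 0.728). By rank, 2 of 14 (Erap1 and Canx 1422845_at) had every MC+HS array below every HS array, where 2.88% of all probe sets did. Without HS replicate 1, 4 of 14 had an unadjusted p under 0.05, all lower with MC+HS, where 5.48% of all probe sets were lower at that level. They were 1450378_at of Tapbp (-0.66 ± 0.19), Erap1 (-0.52 ± 0.16), Pdia3 1423423_at (-0.27 ± 0.11) and Canx 1422845_at (-0.27 ± 0.11), with limma adjusted p between 0.455 and 0.621. For the transporter the 95% intervals of that fit were -0.45 to 0.70 for Tap1 and -0.86 to 0.43 for Tap2. They leave room for Tap1 at 1.62-fold higher, or Tap2 at 0.550 of its HS level, with MC+HS vector, so these data do not show that the preparations acted alike.

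The members were then set beside the rest of the class I route. Differences below are without HS replicate 1 unless said otherwise, and the counts with all 9 arrays are given beside them. Among the interferon-inducible proteasome subunits and activators, which cut proteins into peptides suited to TAP, 4 of 4 tested genes rose with each vector, against 0 of 4 with all 9 arrays. Psmb9, which shares the 225 upstream bases with Tap1, rose by 2.75 ± 0.25 with HS and 2.26 ± 0.23 with MC+HS vector (limma adjusted p = 0.000143 and 0.000282). Its log2 signals were 7.68, 8.73 and 7.83 in mock, 9.26, 10.64 and 11.02 in HS and 10.32, 10.33 and 10.38 in MC+HS brains, high in all vector arrays and lowest among them on HS replicate 1. That array was the lowest vector array for Tap1 too, but also for Psmb8, Psme1 and Psmb10, so this order is not particular to Psmb9 and Tap1. Psmb8, the gene between Tap1 and Tap2, rose by 3.09 ± 0.42 and 2.85 ± 0.37. Psme1, a proteasome activator subunit, rose by 1.14 ± 0.16 and 0.94 ± 0.14, and Psmb10, another inducible catalytic subunit, by 1.04 ± 0.17 and 0.75 ± 0.15. With all 9 arrays the HS difference of Psmb10 turned to -0.91 ± 1.32, as its signal was 40.8 units on HS replicate 1 and 1230 to 6089 on the other arrays; those of Psmb9, Psmb8 and Psme1 were 2.23, 2.38 and 0.88. None of the 14 constitutive core proteasome genes was called with either vector in either fit, with medians of 0.05 and -0.06, and of -0.63 for HS with all 9 arrays.

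Of the class I heavy chains and B2m, which receive the peptide, 4 of 5 tested genes rose with each vector, against 1 of 5 with all 9 arrays. They were H2-D1 (2.48 ± 0.30 with HS and 2.43 ± 0.27 with MC+HS), H2-K1 (1.78 ± 0.26 and 1.73 ± 0.24), H2-M3 (1.72 ± 0.17 and 1.50 ± 0.15) and the light chain B2m (1.43 ± 0.25 and 1.39 ± 0.23). The HS differences of H2-D1, H2-K1, H2-M3 and B2m with all 9 arrays were 2.38, 1.04, 0.80 and 0.50, and only H2-D1 was called. Heavy chain probe sets can bind transcripts of near-identical relatives. Among regulators of class I genes 4 of 9 rose with each vector, against 1 of 9, Irf9, with all 9 arrays. Nlrc5, the transactivator of class I genes, rose by 2.70 ± 0.26 and 2.08 ± 0.24, Irf9 by 2.05 ± 0.27 and 1.82 ± 0.24, Stat2 by 1.67 ± 0.19 and 1.32 ± 0.17 and Irf2 by 0.79 ± 0.15 and 0.58 ± 0.14. Their HS differences with all 9 arrays, in the same order, were 1.78, 1.90, 1.16 and 0.62.

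Lists that share a function with single members were counted in the same way. Of all genes, 3.82% were called higher with HS and 3.25% with MC+HS vector without HS replicate 1. With all 9 arrays these shares were 0.893% and 0.69%. Of 6 other peptidases that trim or destroy peptides, 1 rose with HS and 0 with MC+HS vector. It was the aminopeptidase gene Lap3 (0.58 ± 0.14, limma adjusted p = 0.0437), whose call was lost with all 9 arrays (0.38 ± 0.25, limma adjusted p = 0.635). Of 16 other ER chaperone and glycoprotein quality control genes, 3 rose with HS vector and 0 with MC+HS vector, with median differences of 0.34 and 0.23. In the fit of all 9 arrays 0 of 16 were called with either vector, and the HS median was -0.33. The 3, named after their values were seen, were Hspa5 (BiP, 0.64 ± 0.12), Pdia4 (0.49 ± 0.10) and Pdia6 (0.45 ± 0.10). Their HS differences with all 9 arrays were -0.30 ± 0.67, -0.36 ± 0.59 and 0.09 ± 0.32, so these calls, and the direction for Hspa5 and Pdia4, rest on leaving out HS replicate 1. Windows of 4 of the 14 genes of that list with a RefSeq window held the ERSE (Creld2, Hsp90b1, Hspa5 and Pdia6). It was also in windows of 2 of 13 unfolded protein response genes (Dnajc3 and Syvn1), and in 0.119% of all windows. Whether the motif bears on these differences was not tested. In the unfolded protein response list 0 of 12 genes were called with either vector, with medians of 0.14 and 0.04, and 0 of 13 with all 9 arrays, with medians of -0.15 and 0.08. Among other transporters of the ABCB family, to which Tap1 and Tap2 belong, 0 of 6 were called in either fit, with medians of -0.13 and -0.14, and of -0.42 for HS with all 9 arrays. The median over all genes was 0.05 for HS and 0.01 for MC+HS.

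**Figure D3:**
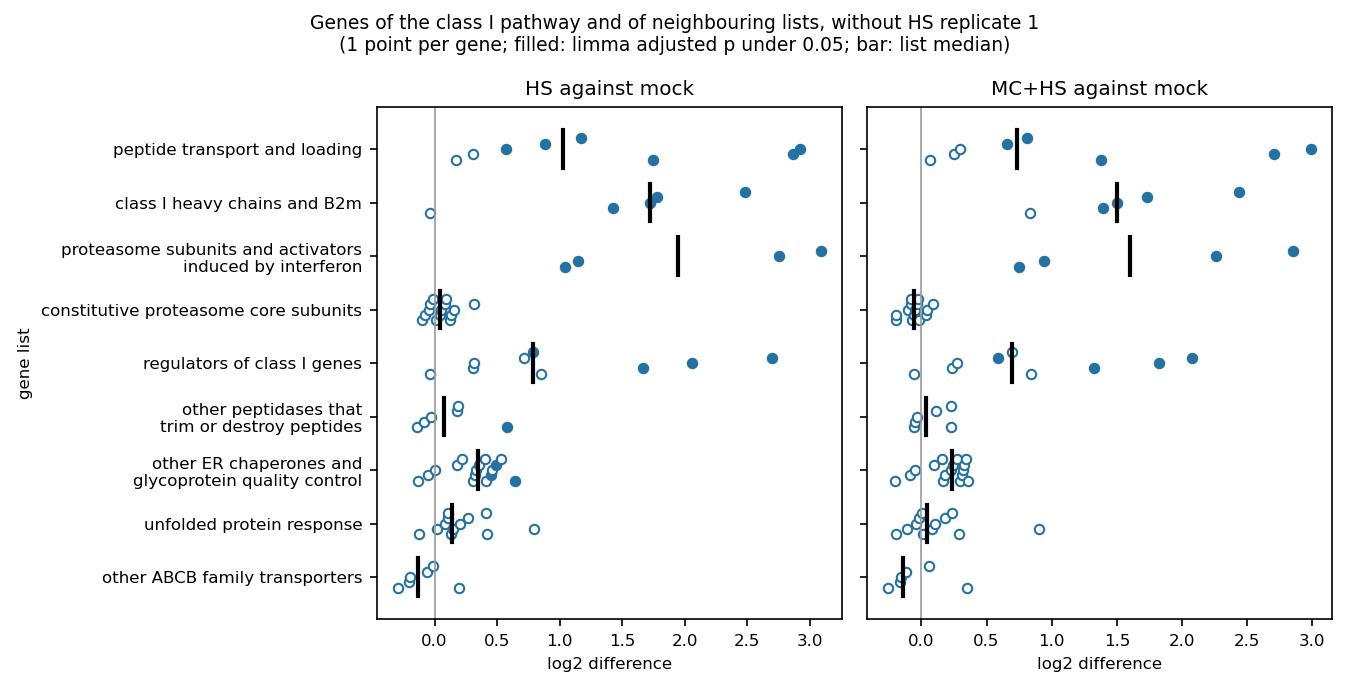
Log2 difference from mock (horizontal axis) of each tested gene in the 8 members and in 8 further gene lists (rows), HS on the left and MC+HS on the right, without HS replicate 1. A point is 1 gene, filled where its limma adjusted p is under 0.05, and the vertical bar is the list median, which is 1.03 and 0.73 for the members and 0.05 and -0.06 for the constitutive proteasome.

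The genes whose log2 signals ran most closely with the transporter were named by Pearson correlation over the 9 arrays, among 13330 genes, as a description, since all points share the group differences and the same arrays. For Tap1 they were AB124611 (0.995), Tmem140 (0.991), Fgl2 (0.989), Cd274 (0.989) and Gm20559 (0.988). For Tap2 they were Ifih1 (0.998), Ifi204 (0.996), Cd72 (0.995), Oas2 (0.994) and Ncf4 (0.994). Cd274 encodes the checkpoint ligand PD-L1, and Ifih1 and Oas2 encode sensors of double-stranded RNA. In all, 240 genes exceeded a correlation of 0.9 with Tap1 and 223 with Tap2, so the order among them is close.

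**Figure D4:**
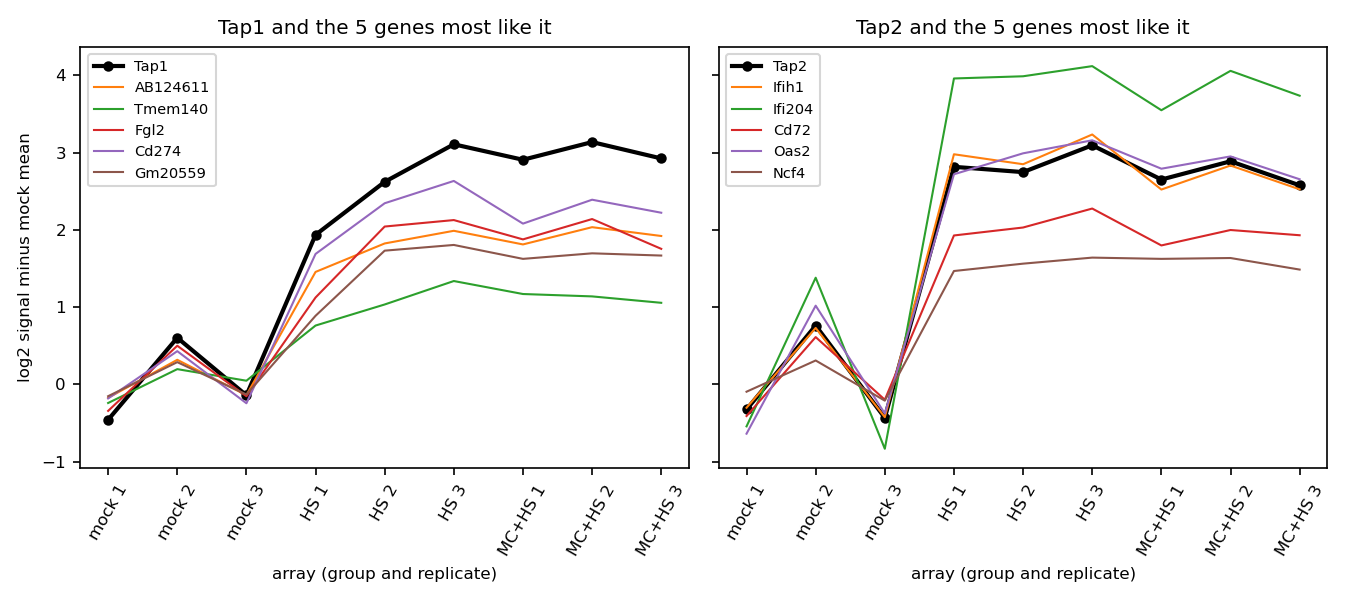
Log2 signal minus the mock mean (vertical axis) on each of the 9 arrays (horizontal axis) for Tap1 (left) and Tap2 (right), in black, and the 5 genes most like each. All lines step up from mock to vector arrays and show the higher mock replicate 2, and on the left all are lowest among vector arrays on HS replicate 1.

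Marker lists of several other cell types also differed between the groups. Sums are of signals on arrays scaled to a common median, and counts are given with all 9 arrays and then without HS replicate 1. The sum of 7 NK cell markers was 422 to 484 in mock, 1438 to 2991 in HS and 1125 to 2279 in MC+HS brains. With each vector 2 and then 3 of 5 tested were called higher, with Ncr1 and Klre1 below the filter. In both fits 4 of the 5 tested differences from mock were positive. Prf1 went the other way, with mean log2 signals of 7.68 in mock, 6.95 in HS and 7.47 in MC+HS brains. For 7 infiltrating monocyte markers the sum was 2029 to 3378 in mock, 2021 to 6843 in HS and 5027 to 5739 in MC+HS brains, and 2 and then 3 of 6 were called higher with each vector. Positive differences numbered 4 and then 6 of 6 for HS, and 6 of 6 in both fits for MC+HS. With all 9 arrays Fn1 and Vcan were lower in HS than in mock. For 6 neutrophil markers it was 237 to 378, 772 to 926 and 415 to 644, with Camp, Mpo and Cxcr2 below the filter. Of the other 3, 2 were called higher with HS vector in both fits, and 1 and then 2 with MC+HS vector. The remaining one, Ngp, was not higher, with mean log2 signals of 6.89 in mock, 6.68 in HS and 6.84 in MC+HS brains.

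Endothelial markers summed to 4516 to 5272 in mock, 3285 to 8035 in HS and 6266 to 7094 in MC+HS brains, with 0 and then 2 of 6 called higher with each vector. Astrocyte markers were at 25064 to 27995, 8707 to 34402 and 27502 to 32066, with 0 called with all 9 arrays and, without HS replicate 1, 3 of 6 higher with HS and 2 of 6 with MC+HS vector. Microglial markers summed to 12856 to 14856, 9387 to 13315 and 11300 to 13660, with 1 (HS) and 2 (MC+HS) of 7 called lower with all 9 arrays and 3 with each vector without HS replicate 1. T cell markers were at 668 to 767, 642 to 773 and 585 to 664, with 5 of 8 below the filter. No T cell, B cell, dendritic cell, oligodendrocyte or striatal neuron marker was called higher in either fit. On HS replicate 1 the sums were the lowest of the HS group for microglia, monocytes, NK cells, dendritic cells, endothelium, astrocytes, oligodendrocytes and striatal neurons alike. The part of any of these cells in the differences of the 8 genes was not tested.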

How the data were processed

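Biotin-labelled cRNA from 9 mouse brains was hybridized to 1 array each. The deposited values are 1 linear intensity per probe set and array, produced by the authors; the submitters' processing notes name GCOS 1.4.0.036. Background, summarisation and scaling steps are not given in the sources used here. Signals were turned into log2(signal + 16), each array was moved to the common median, and 64 control probe sets were dropped. A probe set was kept where it exceeded the 40th percentile of the array on 3 or more arrays, 28257 of the 45037 that were not controls. Genes were named from the platform annotation, where it gave 1 symbol. The probe set with the highest mean log2 signal stood for a gene, 13331 in all. All 8 members matched RefSeq (GRCm38.p6) by Entrez identifier.

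All 9 arrays were fitted with limma 3.58.1 (R 4.3.3; lmFit, eBayes with trend) with group as the only term, and two-sided tests had Benjamini-Hochberg adjustment over every probe set kept. Errors after ± are standard errors unless named SD. The number of arrays limits the precision: the median 95% interval of a gene reached 0.641 to either side, and 0.300 or 0.268 without HS replicate 1. The fits were tested on simulated data. With all 9 arrays, 20% of 2-fold and 67% of 4-fold changes were recovered for HS against mock, with 7 false calls. For MC+HS against mock the shares were 21% and 65%, with 4 false calls. Without HS replicate 1 they were 74% and 94% for HS (9 false calls) and 82% and 98% for MC+HS (3 false calls). A missing call with all 9 arrays is therefore weak evidence of no change. The members and lists were chosen with earlier results of these data known. Named were all member probe sets, up to 4 genes per list with the smallest p against mock, and the 5 genes most correlated with Tap1 and with Tap2. Alternatives were pseudocounts of 1 and 64, no filter, quantile normalization, array quality weights (limma, gene-by-gene method), the 6 compared arrays alone, the replicate number as a block and each array left out in turn.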

Additional observations from a re-analysis of the deposited data

How the results depend on the processing

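Over 16 alternatives for each of the 8 genes in the comparisons with mock, 254 of 256 differences kept their direction. The exceptions were Canx in HS, at 0.14 with array quality weights, and between -1.37 and 0.17 when single arrays were left out. Counts of calls were less stable. With only the 6 compared arrays no member (0 probe sets, 0 genes) was called for HS, and 5 probe sets of 4 genes were called for MC+HS. Of all probe sets, 0.0584% were called higher for HS and 1.98% for MC+HS in these fits. With array quality weights, where HS replicate 1 had a weight of 0.0192, 9 probe sets were called for HS and, for MC+HS, 6 probe sets and 5 genes. More was called throughout in that fit: of all probe sets, 4.7% were called higher with HS and 3.15% with MC+HS vector. Leaving out 1 array gave 1 to 7 probe sets and 1 to 6 genes for HS, 0 to 6 and 0 to 5 for MC+HS, and 0 to 0 for MC+HS against HS. In the last comparison signs turned for Tapbp (-0.21 with quantile normalization, -0.35 with weights, -0.37 to 0.54 with arrays left out), Calr (-0.15 and -0.10 likewise, -0.055 to 0.19 with arrays left out) and Canx (-0.11 with weights, -0.10 to 1.43 with arrays left out). The cause of these changes was not tested beyond the arrays named.

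Whether same-numbered arrays of different groups were handled together is not known from the labels. Correlations of their deviations from the group means lay between -0.168 and 0.287. The highest were between MC+HS and mock, at 0.261 for replicate 1 and 0.287 for replicate 3. Whether these reflect shared handling was not tested. With the replicate number as a block, 3, 2 and 0 member probe sets were called for HS, for MC+HS and in the direct comparison, with the Tapbpl call for HS lost (limma adjusted p = 0.11). Of all probe sets, 0.513% were called higher for HS and 0.333% for MC+HS in that fit. The signals of the 5 member probe sets that did not pass lay mostly well below the filter's level, which limits what can be said of them.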
